A study of Arabidopsis thaliana with 8 samples.

Results

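Of the 692 spots on this Arabidopsis thaliana array that carry the name of exactly 1 gene, 58 measured a transcript that was lower in the tatA line than in WT in replicates 1-2 and also in replicates 3-4, and these 58 genes are described here. They were chosen from the measured values themselves. For each array, 0.1 was added to the deposited spot intensity, log2 was taken and the array's median over all 3439 spots was subtracted. A gene became a member when the tatA mean minus the WT mean was -0.5 or less in replicates 1-2 and again in replicates 3-4. The thresholds were met by 63 genes, and 5 of them are among 14 loci that the selection leaves out. Since the tatA and WT values chose the members, all differences between the groups given below are descriptions of chosen genes, without a test.

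Total RNA from an antisense line of tatA, which the labels also call a mutant, was measured on 4 arrays, and total RNA from WT on another 4 arrays, both in ecotype Columbia 0. Age, tissue, growth conditions, the promoter of the antisense construct and the number of lines or plants behind each array are not stated in the labels. The labels do not say whether replicates came from separate plants, so the spread between arrays may be technical. Transcripts of TATA, TATB and TATC are not analysed here, and no measured value of the targeted transcript stands beside the comparison.

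TatA is a membrane subunit of the twin-arginine translocase of the chloroplast thylakoid, which moves folded proteins into the lumen using the proton gradient. The proteins it carries bear a pair of arginines in their signal sequence, and many of them serve photosynthetic electron transport or its assembly and repair. Nuclear genes supply most chloroplast proteins, and the transcript levels of many such genes respond to the state of the chloroplast. The 58 members do not form 1 pathway. They encode chloroplast proteins, enzymes of RNA methylation, Golgi and cell wall enzymes, kinases, ubiquitin ligases, DNA-modifying proteins and transcription factors, and for 18 of them no role is given here.

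Array medians of the deposited intensity were 0.365 to 0.390 in tatA and 0.429 to 0.531 in WT, and 209 to 248 spots per tatA array and 172 to 192 per WT array were listed at 0. The median spot lay 0.32 lower in tatA on the log2 scale before centring (-0.316), and changes are given after centring unless an intensity is quoted. Arrays of a group were more alike within replicates 1-2 and within replicates 3-4 than across them. The SD of the log2 difference over all spots was 0.319 to 0.424 within such a pair of arrays and 0.548 to 0.610 between arrays of different pairs. What the pairs stand for is not stated in the labels. With total RNA of a whole sample, fewer cells of a type and less transcript per cell cannot be told apart.

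Across all spots, 10.3% met the same pair of thresholds downward and 11.3% met them upward, and among spots with 1 gene the shares were 9.1% and 11.7%. By limma, with a Benjamini-Hochberg adjusted p under 0.05 over all spots, 582 spots were lower in tatA (16.9%) and 540 were higher, and 55 of the 58 members were among the lower ones. With the replicate number as a block, 609 spots (17.7%) and all 58 members were called lower. The selection used this contrast, so these counts are fixed in large part by the choice. The split depends on the scaling, with 1074 lower and 309 higher on the deposited scale and 490 lower and 733 higher after scaling to the 75th percentile. With replicates 1-2 and replicates 3-4 of each group treated as separate random blocks, 33 members and 7.27% of all spots were called lower. With each such pair of arrays of a group averaged to 1 value, 4 members and 1.4% of all spots were called lower. Neither of these fits pairs tatA arrays with WT arrays.

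**Figure D1:**
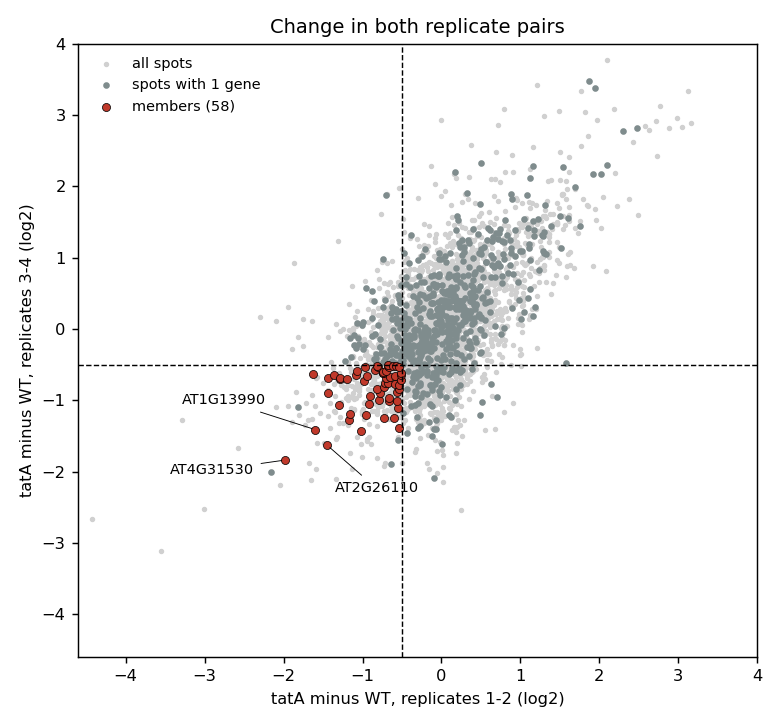
Change in tatA relative to WT in replicates 1-2 (horizontal axis, log2) and replicates 3-4 (vertical axis, log2) for each spot, with all 3439 spots in light grey, the 692 spots with 1 gene in dark grey and the 58 members in red. Dashed lines mark the threshold of -0.5, and AT4G31530 lies lowest among the members in both pairs.

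The mean change over all arrays ran from -1.91 to -0.54 among the members, with a median of -0.81. For 12 members it was -1 or lower, and 7 of these reached -1 in each pair separately. A mean change this low was found at 3.31% of all spots. After centring, the 4 tatA values lay below the 4 WT values for 54 members, against 18.2% of all spots, a count that the selection again favours. The 4 members whose groups overlapped were AT4G38020, AT1G33250, AT1G11820 and AT5G26850. All 4 had WT means under 0.5. On the deposited scale the tatA arrays were below the WT arrays for 57 members and at 32.0% of all spots, with AT1G33250 as the exception.

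**Figure D2:**
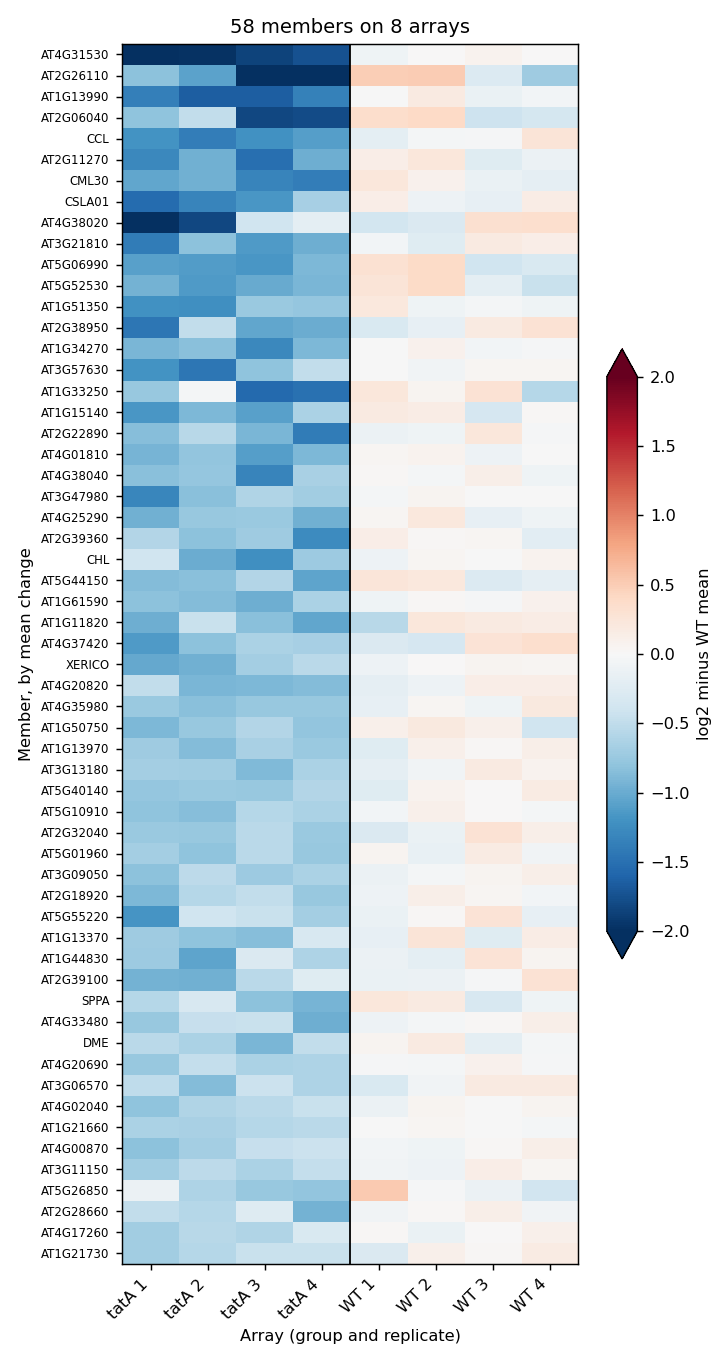
Log2 values of the 58 members (rows, ordered by mean change) on the 4 tatA and 4 WT arrays (columns), each row expressed relative to its own WT mean, with blue lower and red higher. The tatA columns are blue in nearly all rows, and WT columns stay near 0 except in a few rows such as AT2G26110, AT2G06040 and AT4G38020, where replicates 1-2 and 3-4 differ.

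Oxidoreductases were represented by 5 members. AT4G31530 encodes a protein with the fold that binds NAD(P). Its deposited intensity was 6.23, 6.56, 7.52 and 7.82 on tatA arrays 1 to 4, against 27.9, 29.8, 37.3 and 35.4 on WT arrays 1 to 4. Every tatA array was thus far under every WT array, and the change was -1.91, with -1.98 in replicates 1-2 and -1.84 in replicates 3-4. AT1G15140, an oxidoreductase of the FAD- and NAD(P)-binding type, had intensities of 0.162, 0.210, 0.188 and 0.275 in tatA and 0.646, 0.633, 0.520 and 0.686 in WT. Its groups did not overlap, and the change of -0.95 was deeper in replicates 1-2 (-1.20) than in replicates 3-4 (-0.70). AT4G20820, of the berberine bridge enzyme family, averaged 0.128 ± 0.0330 in tatA and 0.384 ± 0.0988 in WT (SD, n = 4 arrays), a change of -0.79. AT3G11150, a 2-oxoglutarate-dependent oxygenase, averaged 1.09 ± 0.0672 in tatA and 2.08 ± 0.373 in WT (SD, n = 4 arrays). AT4G17260, a lactate dehydrogenase, which interconverts pyruvate and lactate, averaged 0.222 ± 0.0359 in tatA and 0.473 ± 0.0849 in WT (SD, n = 4 arrays). The last pair lay close to the threshold, with changes of -0.58 and -0.54.

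A group of 5 members encodes proteins known or predicted to work in the chloroplast, with changes from -0.93 to -0.67. Each member was placed in a single group by known role, and protein location was not looked up. Members of other groups, such as AT5G10910 described further on, may therefore also work in the chloroplast. CHL is the chloroplastic lipocalin of the thylakoid lumen, a protein that protects membrane lipids from oxidation under stress and takes part in sustained photoprotection. Its intensity was 0.294, 0.159, 0.131 and 0.212 in tatA and 0.446, 0.498, 0.594 and 0.623 in WT. The highest tatA array, replicate 1, stayed below the lowest WT array, and the change of -1.01 in replicates 3-4 was deeper than that of -0.66 in replicates 1-2. SPPA, a light-induced protease bound to the thylakoid, had intensities of 0.325, 0.399, 0.271 and 0.229 in tatA and 0.733, 0.707, 0.580 and 0.688 in WT. Its change was nearly equal in the pairs, at -0.65 and -0.68. AT5G55220 encodes a trigger factor, a chaperone that meets proteins as they leave the ribosome. It was listed at 0 on tatA replicate 1 and at 0.0687, 0.0736 and 0.0403 on tatA replicates 2 to 4, against 0.131, 0.159, 0.267 and 0.169 in WT, and its change of -0.68 was -1.01 with an offset of 0.05 and -0.40 with one of 0.2.

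The other members of this group concern folate and lipids. AT2G32040 encodes a folate transporter of the plastid envelope. It had intensities of 0.749, 0.729, 0.909 and 0.742 in tatA and 1.21, 1.36, 2.21 and 1.94 in WT, with tatA replicate 3 above the other tatA arrays and WT replicates 3-4 above WT replicates 1-2. AT2G22890 is a relative of the plastid desaturase that forms the trans double bond of phosphatidylglycerol in thylakoids. Its intensity was 0.977, 1.21, 0.977 and 0.638 in tatA and 1.92, 1.97, 2.95 and 2.44 in WT, and the change was larger in replicates 3-4 (-1.26) than in replicates 1-2 (-0.60). Outside this group, AT3G47980, an integral membrane protein of the HPP family, averaged 0.406 ± 0.107 in tatA and 1.0 ± 0.102 in WT (SD, n = 4 arrays), and AT2G28660, annotated as a copper chaperone, averaged 0.318 ± 0.0877 in tatA and 0.645 ± 0.101 in WT (SD, n = 4 arrays).

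Enzymes of the rRNA methyltransferase type were found 3 times. AT5G10910 is the plant relative of the bacterial enzyme MraW and methylates the small-subunit rRNA of the plastid ribosome. Its intensity was 0.434, 0.410, 0.552 and 0.499 in tatA and 0.903, 1.02, 1.15 and 1.10 in WT, so the groups were well apart, with a change of -0.71. AT3G13180, of the family that methylates cytosines in rRNA (NOL1/NOP2/sun), had intensities of 0.178, 0.171, 0.150 and 0.186 in tatA and 0.341, 0.379, 0.578 and 0.518 in WT. The tatA arrays were nearly equal, and the change of -0.88 in replicates 3-4 exceeded that of -0.57 in replicates 1-2, with WT higher in replicates 3-4. AT4G38020, of the SpoU family of RNA methyltransferases, was listed at 0 on tatA replicate 1 and had 0.0196, 0.237 and 0.271 on tatA replicates 2 to 4, against 0.271, 0.295, 0.614 and 0.618 in WT. Both groups were brighter in replicates 3-4 than in replicates 1-2. Replicates 1-2 gave a change of -1.63 and replicates 3-4 one of -0.63, a gap of 1.0 that was the widest between pairs among the members.

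Golgi and cell wall enzymes made up 6 members, with changes from -1.17 to -0.83 and a median of -0.97. CSLA01 belongs to the family of synthases that build the mannan backbone of cell wall glucomannans. Its intensity was 0.0950, 0.123, 0.162 and 0.254 on tatA arrays and 0.593, 0.489, 0.574 and 0.727 on WT arrays. The groups did not overlap, and the change was -1.17, being -1.44 in replicates 1-2 and -0.90 in replicates 3-4. The exostosin family of glycosyltransferases contributed AT3G57630, AT1G34270 and AT4G38040. AT3G57630, which adds arabinose to the cell wall protein extensin, had 0.401, 0.320, 0.585 and 0.711 in tatA and 1.19, 1.13, 1.48 and 1.47 in WT. AT1G34270 had 0.403, 0.422, 0.301 and 0.406 in tatA and 0.961, 1.03, 1.12 and 1.13 in WT, with tatA replicate 3 lowest. AT4G38040 had 0.295, 0.306, 0.195 and 0.349 in tatA and 0.703, 0.671, 0.921 and 0.779 in WT. All 3 had tatA arrays below every WT array, as did 57 of the 58 members and 32.0% of all spots on the deposited scale. The changes of these 3 genes were -0.99, -0.99 and -0.89. AT1G33250, of a family with similarity to galactosyltransferases, was listed at 0 on tatA replicates 3 and 4 and had 0.0664 and 0.171 on tatA replicates 1 and 2, against 0.270, 0.229, 0.364 and 0.151 in WT. Here tatA replicate 2 exceeded WT replicate 4, and the change of -0.96 was -1.4 with an offset of 0.05 and -0.595 with one of 0.2. AT1G11820, a family member of the glucan endo-1,3-beta-glucosidases that cleave callose, averaged 0.0460 ± 0.0279 in tatA and 0.222 ± 0.0875 in WT (SD, n = 4 arrays). After centring its WT replicate 1 overlapped the tatA arrays. The change of AT1G11820 was -0.83, and it was -1.16 with an offset of 0.05 and -0.52 with one of 0.2.

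**Figure D3:**
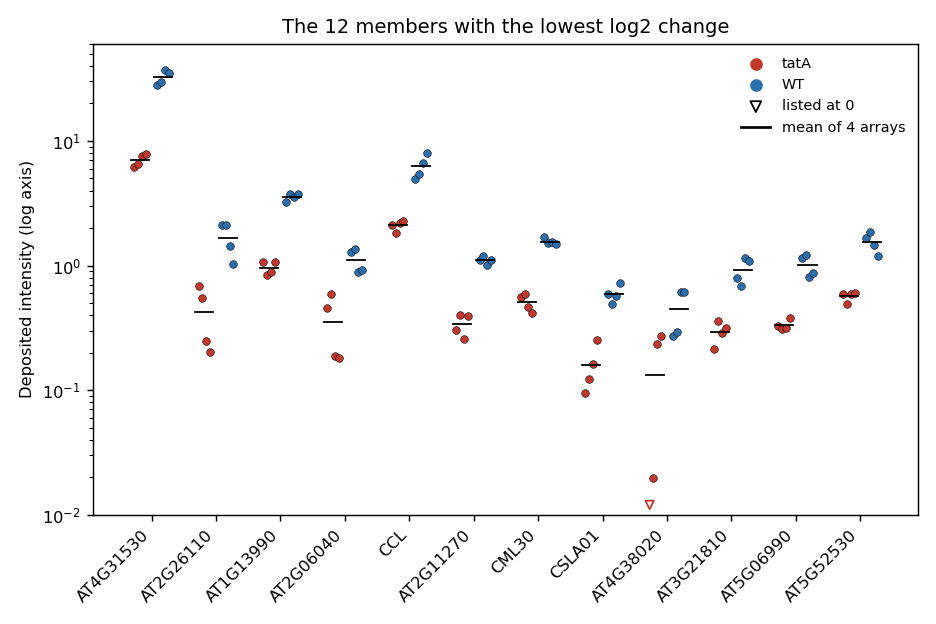
Deposited spot intensity (vertical log axis) of the 12 members with the lowest mean change, with the 4 tatA arrays in red left of the 4 WT arrays in blue and black lines at the group means. An open triangle marks a value listed at 0 (AT4G38020, tatA replicate 1), and within each gene every tatA array lies below every WT array on this scale. That holds for 57 of the 58 members and for 32.0% of all spots.

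Signalling proteins were represented by a calcium sensor and a pair of kinases. CML30 is a calmodulin-like protein, and calmodulin-like proteins bind calcium and pass its signal to target proteins. Its intensity was 0.558, 0.590, 0.465 and 0.414 in tatA and 1.68, 1.52, 1.55 and 1.48 in WT. The groups were tight and far apart, and replicates 1-2 (-1.16) and 3-4 (-1.19) gave like changes. AT2G39360, a receptor-like kinase, had intensities of 0.738, 0.601, 0.698 and 0.419 in tatA and 1.44, 1.34, 1.63 and 1.33 in WT, a change of -0.84. AT1G61590, a cytoplasmic protein kinase, had 0.199, 0.183, 0.177 and 0.237 in tatA and 0.456, 0.502, 0.592 and 0.638 in WT, and its change of -0.83 was nearly the same in the pairs (-0.82 and -0.84).

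Ubiquitin ligases and an F-box protein, which select proteins for degradation, made up 5 members with changes from -0.80 to -0.61. XERICO, a RING-type protein whose overproduction raises abscisic acid and drought tolerance, had intensities of 1.33, 1.38, 1.80 and 1.90 in tatA and 2.94, 3.21, 3.95 and 3.86 in WT. Replicates 3-4 were brighter than replicates 1-2 in both groups, and the groups stayed apart. AT5G40140 combines a U-box with armadillo repeats and averaged 0.641 ± 0.0453 in tatA and 1.40 ± 0.273 in WT (SD, n = 4 arrays). AT2G39100, of the RING/U-box superfamily, averaged 1.54 ± 0.411 in tatA and 3.06 ± 0.708 in WT (SD, n = 4 arrays), and AT5G01960, of the same superfamily, averaged 0.112 ± 0.0229 in tatA and 0.319 ± 0.0677 in WT (SD, n = 4 arrays). AT3G06570, an F-box protein with kelch repeats, averaged 0.221 ± 0.0471 in tatA and 0.505 ± 0.149 in WT (SD, n = 4 arrays). The tatA arrays lay below the WT arrays for each of these 5 genes after centring. The same held for 54 of the 58 members and for 18.2% of all spots.

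Proteins that act on DNA or chromatin made up 4 members. DME (DEMETER) is the DNA glycosylase that removes methylated cytosine and is known for activating maternal alleles in the central cell of the ovule. Its intensity was 0.248, 0.220, 0.179 and 0.254 in tatA and 0.488, 0.541, 0.487 and 0.548 in WT, a change of -0.64 with narrow groups in which the SD was 0.0345 in tatA and 0.0330 in WT. AT2G38950 carries the jumonji domain found in histone demethylases and had 0.0917, 0.266, 0.162 and 0.161 in tatA and 0.371, 0.422, 0.691 and 0.740 in WT. WT was brighter in replicates 3-4, where the change was -1.25, than in replicates 1-2, where it was -0.73. AT4G25290, related to DNA photolyases that repair ultraviolet damage, had 0.750, 0.864, 0.928 and 0.744 in tatA and 1.80, 2.04, 1.88 and 1.97 in WT. Its groups were narrow, and the change was -0.85. AT1G13370, a histone H3 gene, averaged 0.0939 ± 0.0323 in tatA and 0.277 ± 0.0633 in WT (SD, n = 4 arrays). Histone H3 genes are a multigene family of like sequence, so that a spot could also bind transcripts of related genes. The same limit may hold for other members that belong to gene families, as no probe sequence was used here.

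Transcription factors, a zinc finger protein and a clock-controlled gene together made up 4 members. CCL is a gene whose mRNA is degraded at a rate that the circadian clock sets. Its intensity was 2.13, 1.83, 2.19 and 2.28 in tatA and 4.94, 5.47, 6.64 and 7.99 in WT. The tatA arrays were close to each other while WT spanned 4.94 to 7.99, and the pairs gave changes of -1.18 (replicates 1-2) and -1.27 (replicates 3-4). The time of day at harvest is not given in the labels. AT4G00870, a basic helix-loop-helix transcription factor, had intensities of 1.81, 1.98, 2.45 and 2.38 in tatA and 3.55, 3.48, 4.47 and 4.71 in WT, and its change of -0.51 in replicates 3-4 was close to the threshold. AT1G44830, a transcription factor of the AP2/ERF family, had 0.445, 0.327, 0.671 and 0.486 in tatA and 0.833, 0.785, 1.36 and 1.14 in WT. AT3G21810, with zinc fingers of the CCCH type found in RNA-binding proteins, had 0.212, 0.357, 0.288 and 0.316 in tatA and 0.788, 0.680, 1.14 and 1.09 in WT. Of these, AT3G21810 had the lowest change after CCL, at -1.08, and AT1G44830 had -0.67.

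Transport of vesicles and organelles was represented by 3 members. AT4G01810, of the Sec23/Sec24 family that forms the coat of vesicles leaving the endoplasmic reticulum, had intensities of 0.367, 0.412, 0.332 and 0.378 in tatA and 0.930, 0.951, 1.01 and 1.08 in WT. It was among the most even members, at -0.91 in replicates 1-2 and -0.94 in replicates 3-4. AT1G21660, with the J-domain of chaperone partners, averaged 0.744 ± 0.0446 in tatA and 1.46 ± 0.132 in WT (SD, n = 4 arrays). AT1G21730, a kinesin with a mitochondrial targeting sequence, averaged 0.160 ± 0.0242 in tatA and 0.366 ± 0.0911 in WT (SD, n = 4 arrays), and at -0.54 its change was the smallest among the members.

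Of the 18 members without a role here, 6 belonged to the 12 with the lowest change. AT2G26110 had intensities of 0.687, 0.553, 0.248 and 0.201 in tatA and 2.10, 2.12, 1.44 and 1.02 in WT. Its level was lower in replicates 3-4 than in replicates 1-2 in both groups, the difference between them being -1.18 in tatA and -1.0 in WT on the centred log2 scale, while the change was similar at -1.45 and -1.63. AT2G06040 had 0.459, 0.587, 0.187 and 0.180 in tatA and 1.30, 1.35, 0.885 and 0.917 in WT, and its level was likewise lower in replicates 3-4, with differences of -1.16 in tatA and -0.75 in WT. AT1G13990 was steady within groups, with 1.06, 0.837, 0.894 and 1.06 in tatA and 3.22, 3.72, 3.56 and 3.72 in WT, a change of -1.51. AT2G11270 had 0.302, 0.399, 0.258 and 0.393 in tatA and 1.10, 1.19, 1.01 and 1.10 in WT, and its groups were far apart.

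In AT5G06990 and AT5G52530, WT was brighter in replicates 1-2 than in replicates 3-4. AT5G06990 had 0.325, 0.310, 0.316 and 0.380 in tatA and 1.15, 1.22, 0.816 and 0.865 in WT, and AT5G52530 had 0.586, 0.496, 0.586 and 0.602 in tatA and 1.68, 1.84, 1.45 and 1.20 in WT. The tatA arrays of AT5G06990 lay within 0.310 to 0.380, and in AT5G52530 tatA replicate 2 was below the other tatA arrays. Replicates 1-2 gave changes of -1.44 and -1.36 and replicates 3-4 gave -0.68 and -0.64. AT1G51350, with armadillo repeats, averaged 1.60 ± 0.342 in tatA and 3.96 ± 0.383 in WT (SD, n = 4 arrays). The remaining members without a role are AT5G44150, AT4G37420, AT4G35980, AT1G50750, AT1G13970, AT3G09050, AT2G18920, AT4G33480, AT4G20690, AT4G02040 and AT5G26850. Their changes ran from -0.83 (AT5G44150) to -0.57 (AT5G26850).

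Some of these genes varied within a group and others were even. AT5G26850 had intensities of 0.210, 0.117, 0.107 and 0.0951 in tatA and 0.444, 0.273, 0.319 and 0.242 in WT, and its tatA replicate 1 overlapped WT after centring. AT3G09050 averaged 0.588 ± 0.0536 in tatA and 1.25 ± 0.224 in WT (SD, n = 4 arrays), with the groups apart. AT4G35980 was the most even member in the tatA line, at 0.150, 0.132, 0.158 and 0.146, against 0.321, 0.386, 0.429 and 0.537 in WT. AT4G37420 had 0.215, 0.290, 0.364 and 0.334 in tatA and 0.542, 0.520, 1.02 and 1.07 in WT, so that WT was again brighter in replicates 3-4. AT1G50750 had 0.159, 0.181, 0.234 and 0.176 in tatA and 0.478, 0.515, 0.587 and 0.383 in WT, with WT replicate 4 lowest in its group yet above all tatA arrays. AT1G13970 averaged 0.414 ± 0.0438 in tatA and 0.955 ± 0.184 in WT (SD, n = 4 arrays), and AT4G20690 averaged 0.537 ± 0.0487 in tatA and 1.10 ± 0.153 in WT (SD, n = 4 arrays).

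The selection required a change of -0.5 or less in each pair of replicates, so likeness between the pairs is in part built in. The change was more negative in replicates 3-4 for 30 members and in replicates 1-2 for 28, and among all 354 spots that met both thresholds it was more negative in replicates 3-4 for 180 (50.8%). The difference between the pairs was 0.2 or less for 29 members and more than 0.5 for 11. Wide gaps ran in both directions, from -0.85 for AT1G33250 to 1.0 for AT4G38020, and both of these genes have values listed at 0.

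A spot's intensity depends on its probe as well as on the transcript, so intensities of different spots are given here as a description of the spots only. The members' WT mean intensity had a median of 0.940, against 0.447 for spots with 1 gene and 0.485 for all spots, and their tatA mean had a median of 0.335, against 0.352 and 0.376. Of the 58, 45 lay above the median spot in WT and 33 lay below it in tatA. WT intensity enters the selection, and the offset of 0.1 holds back the change of dim spots, so these levels are partly set by the choice. WT means were over 2 for 9 members, and tatA means were under 0.1 for 4.

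For many members, though not for all, the spots nearest in number were also lower in tatA. The labels do not describe the array layout, so the 10 nearest spot numbers were taken as neighbours. Their median change had a median of -0.24 over the members, against -0.03 over all spots, and was below 0 for 37 of the 58 members (63.8%), against 53.1% of all spots. When each spot was instead centred on these neighbours, 30 of the 58 members still met -0.5 in both pairs, against 9.07% of all spots. The members had already met -0.5 in both pairs before this centring, so the selection favours this count. The 30 included 10 of the 12 members with the lowest change, all but CML30 and AT4G38020. AT2G32040, at -0.05 relative to its neighbours, AT2G28660 at -0.07, AT4G20690 at -0.09 and AT4G00870 at -0.11 were nearly level with them. In contrast, AT2G26110 at -1.66, AT4G31530 at -1.46 and AT2G11270 at -1.43 stood clear. The part of spot position in the changes was not tested.

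**Figure D4:**
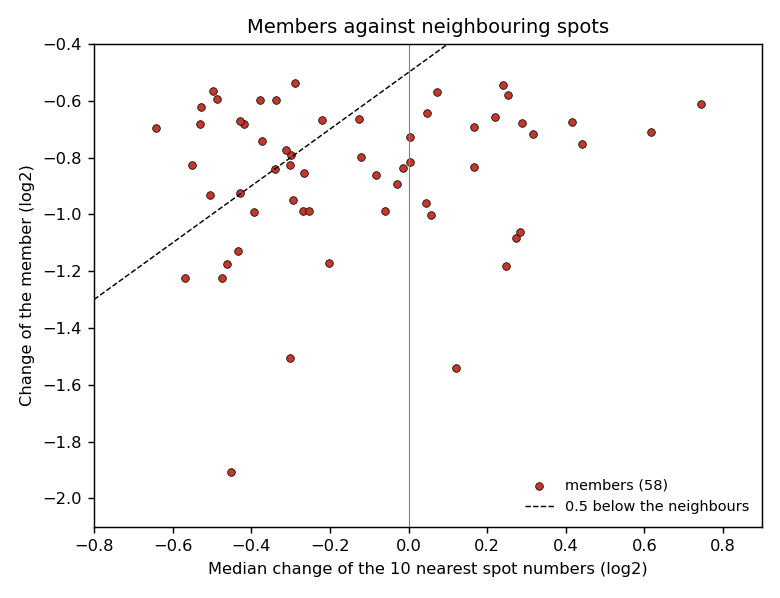
Mean change of each of the 58 members (vertical axis, log2, tatA minus WT) against the median change of the 10 spots nearest in number (horizontal axis, log2). Points below the dashed line are at least 0.5 lower than their neighbours, which holds for 41 members, and 37 points lie left of 0. The selection favours the count of 41. Over all spots the lower quartile of the change minus the neighbours' median was -0.34.

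Some members had neighbouring spot numbers or lie near each other in the genome. AT4G35980 and AT4G01810 have consecutive spot numbers, and AT1G13990 and CCL have spot numbers that differ by 2, as do AT2G39100 and AT1G44830. In the gene order of the TAIR10.1 annotation, AT4G38020 and AT4G38040 are 2 genes apart, as are AT1G13970 and AT1G13990, and AT1G21660 and AT1G21730 are 9 genes apart. By chromosome, 14 members lie on chromosome 1, 12 on chromosome 2, 9 on chromosome 3, 14 on chromosome 4 and 9 on chromosome 5. Chromosome 4 holds 24.1% of the members and 17.3% of the spots with 1 gene, a difference that was not tested. Median gene length was 2180 bases for the members and 2146 bases for spots with 1 gene that have a length.

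Related genes were mostly absent among the spots with 1 gene. Spots with several genes were not searched. Of the 9 mannan synthase genes, 18 genes of the circadian clock and its outputs and 12 jumonji genes that were listed, 1 each had such a spot with 1 gene. These were the members CSLA01, CCL and AT2G38950. Among 10 genes of the routes into the thylakoid, only SECE1 had a spot with 1 gene. It is a subunit of the thylakoid Sec translocase and is one of the 14 loci that the selection leaves out by name. It averaged 0.507 ± 0.0220 in tatA and 1.05 ± 0.293 in WT (SD, n = 4 arrays), and its changes were -0.34 (replicates 1-2) and -0.87 (replicates 3-4). None of 29 marker genes for leaf mesophyll, guard cells, root, xylem, phloem, pollen, seed and dividing cells was among the spots with 1 gene, so the tissue and its makeup could not be checked.

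The threshold of -0.5 cut through a continuous range. Just inside it, AT4G00870 had changes of -0.68 and -0.51 in replicates 1-2 and 3-4, AT2G28660 had -0.51 and -0.62, and AT3G06570 had -0.51 and -0.71. Just outside, RAP74, a subunit of a general transcription factor, had -0.61 and -0.50 (-0.497), AT5G40050 had -0.60 and -0.49, and AT2G03390 had -0.49 and -1.18.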

How the data were processed

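The deposited table gives spot intensity for 3439 spots on 8 arrays, 1 column per array. The deposited intensity is linear, never negative and ends at 100 in every column. How the authors read the spots, removed background and scaled the arrays is not stated in the labels or the table. Apart from the shared maximum of 100, the scaling stays unknown. Values and counts on the deposited scale depend on it, and its part in the lower tatA medians was not tested. The 4 arrays per group limit precision. Groups and replicate numbers came from the sample titles. Gene names came from the platform annotation in GEO, where 692 spots have 1 gene, 870 have several and 1877 have none. RefSeq's TAIR10.1 annotation held 690 of the 692 and was used for names, gene order and length.

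Values were taken as log2(intensity + 0.1) minus the array's median. This scale of the selection was used throughout in place of quantile normalization, which is an alternative. The groups were compared over all spots with limma 3.58.1 in R 4.3.3 (lmFit, eBayes with an intensity trend, group as the only term, two-sided), tested on simulated data, and no p is given for a member. Figures were drawn with matplotlib 3.10.9.

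The members and the gene lists were chosen with earlier results of these data known. Values on all arrays are given for the 12 members with the lowest change and for list members, by rule. Further members were added by known role after their values were seen. Product names and sequences were not used here, so the planned word classes, promoter motifs and protein features were not run.

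Whether replicate numbers pair the arrays was checked on each array's departure from its group mean, which for tatA and WT arrays of the same number correlated across the 3439 spots at 0.308, 0.292, 0.243 and 0.313 for replicates 1 to 4, all over the limit of 0.1 for taking the numbers as pairing the samples. Unlike numbers within 1-2 or within 3-4 gave 0.051 to 0.144, and those across them -0.251 to -0.143. No label says what a number marks. The counts given first come from the fit with group alone, which ignores this pairing. The fit with the replicate number as a block takes it into account, with 609 spots and 58 members lower.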

Additional observations from a re-analysis of the deposited data

Results flagged for a closer look

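In 116 groups of 4 arrays (58 members in tatA and in WT), 3 had 1 array far from the others by Dixon's test on the intensity, where chance gives about 1 in 20. AT5G52530 had 0.496 on tatA replicate 2, against 0.586 to 0.602 on the other tatA arrays. AT1G34270 had 0.301 on tatA replicate 3, against 0.403 to 0.422. AT2G32040 had 0.909 on tatA replicate 3, against 0.729 to 0.749. In each case the array stayed below every WT array.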

How the results depend on the processing

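All 58 members kept a negative change under every alternative scaling, offset and filter that retained them and with each array left out. The median change of the members was -0.81, and -1.09 on the deposited scale, where no centring was applied. It ranged from -0.83 to -0.76 with 1 array left out. Centring on the 10 nearest spot numbers left 30 members within the selection, scaling to the 75th percentile 40, an offset of 0.2 left 41, and leaving out 1 array 48 to 54. With the offset of 0.2 the change nearest to 0 was -0.40. The lowest change was -2.56 with quantile normalization alone and -4.33 when zeros were also set to the smallest positive value without an offset. The groups did not overlap for 54 to 56 members with 1 array left out, against 54 members and 18.2% of all spots with all arrays. The selection favours these counts, and fewer arrays in a group make overlap less likely. The share of all spots with 1 array left out is not given here. On the deposited scale limma called 1074 spots lower and 309 higher. Taking replicates 1-2 and replicates 3-4 of each group as separate random blocks, limma called 250 lower and 281 higher, with 33 members. With these pairs averaged within each group it called 48 lower and 113 higher, with 4 members. With 1 array left out it called 444 to 529 spots lower, 411 to 525 higher and 49 to 54 members lower. In the paired fit, which has the replicate number as its block, 609 spots were lower and 581 higher, and 58 members were lower. The cause of these differences was not tested. Quantile normalization, the other filters, robust variance and no intensity trend kept each count within 1.5 times. Values listed at 0 limit AT4G38020, AT1G33250 and AT5G55220. The changes of other dim members, such as AT1G11820, also depend on the offset.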
